A study of Mus musculus with 8 samples.

Results

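A set of 10 genes of the cytosolic heat shock system were followed in alveolar macrophages that lack or carry the mitochondrial transcription factor Tfam. The genes were picked by name from the deposited table: Hspa1a, Hspa1b, Hspa8, Hspa4, Hsph1, Hsp90aa1, Hsp90ab1, Dnajb1, Dnaja1 and Hsf1. All 10 were found among 12367 rows, and all 10 passed the filter on low values that left 12163 rows for testing. All but Hsf1 encode chaperones or cochaperones, and Hsf1 encodes the transcription factor that drives the system.

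HSP70 proteins bind short exposed stretches of unfolded proteins and release them in a cycle driven by ATP. J-domain proteins such as DNAJB1 and DNAJA1 bring clients and start ATP hydrolysis, while HSPA4 and HSPH1 exchange the nucleotide so that the client is let go. HSP90 proteins act later, on nearly folded clients such as kinases and steroid receptors. HSF1 is held inactive by chaperones in unstressed cells, and when unfolded proteins accumulate it binds heat shock elements, inverted repeats of the letters GAA, and raises transcription of many of these genes. Hspa1a and Hspa1b are the strongly inducible HSP70 genes, and heat, enzymatic digestion of tissue and cell sorting are known inducers.

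The cells were CD45+ F4/80+ CD11c+ cells flow-sorted from the lungs of untreated mice of 3 weeks, after digestion with enzymes at a warm temperature and enrichment on magnetic columns. All mice carried floxed alleles of Tfam. The 4 control libraries came from Tfam-fl/fl mice (WT below) and the 4 experimental libraries from CD11c-Cre Tfam-fl/fl mice (KO below), in which the CD11c promoter drives the recombinase. A library stands for 1 pool, made from 3 to 5 mice of either or both sexes. Without a block, p-values measure the spread between these pools. With the replicate number as a block, they measure the spread of the differences between same-numbered pools. No group had the Cre without floxed Tfam, so an effect of the Cre and an effect of Tfam loss cannot be told apart. In such bulk samples fewer cells of a type and less RNA per cell cannot be told apart either.

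Values are on the authors' normalised scale, which corrects for library size. The libraries held 20243772 to 30263201 reads in the listed genes, and 3 reads correspond to a value of 0.1 to 0.152. Tfam itself was at 26.1 to 35.2 across WT pools and at 3.52 to 5.08 across KO pools. All 10 markers of alveolar macrophages were present, 5 of them lower and 2 higher in KO, against 20.0% and 18.7% of all tested genes. With the replicate number as a block 6 were lower and 3 higher, against 24.3% and 22.4%. Their summed values were 30119 to 32066 in WT and 30006 to 35746 in KO. Most of that sum was Chil3, and the other 9 markers summed to 6616 to 7772 in WT and 5019.7 to 5531 in KO, without overlap. Markers of interstitial macrophages and monocytes were higher in KO in 7 of 7 tested genes, with sums of 43.6 to 70.0 in WT and 113 to 281 in KO, and the part of these cells in the results below was not tested. Ly6c2 and Folr2 from that list and the 6 T and NK cell markers were not analysed here. Lung epithelium markers summed to 45.9, 49.3, 124 and 70.9 in WT replicates 1 to 4 and 69.7 to 106 in KO. Endothelium and fibroblast markers summed to 26.2, 23.1, 109 and 29.6 in WT and 34.4 to 66.8 in KO. Both sums were highest in replicate 3 of both genotypes. Of 3 tested neutrophil markers Cxcr2 was higher in KO (13.3 ± 3.33 and 75.1 ± 16.4) and S100a9 lower (11.9 ± 7.45 and 3.82 ± 2.17).

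2 patterns showed in the heat shock genes. The inducible genes Hspa1a and Hspa1b were higher in KO, by 2.21 and 2.09 on the log2 scale. Separately, the pools numbered 4 of both genotypes had higher values than the other pools for 8 of the 10 genes, by up to 7.61 times. In the test of KO against WT, limma called 2 of the 10 genes higher and 0 lower, where the shares among the 12163 rows were 18.7% higher and 20.0% lower. At an unadjusted p under 0.05 the counts were also 2 and 0, and with voom weights 2 and 0. The median log2 fold change of the 10 was 0.0965, against -0.00633 over all genes tested. With the replicate number as a block the counts were 4 higher and 1 lower, against 22.4% and 24.3% of all genes. Without both replicate 4 pools they were also 4 and 1, against 19.8% and 21.3%.

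**Figure D1:**
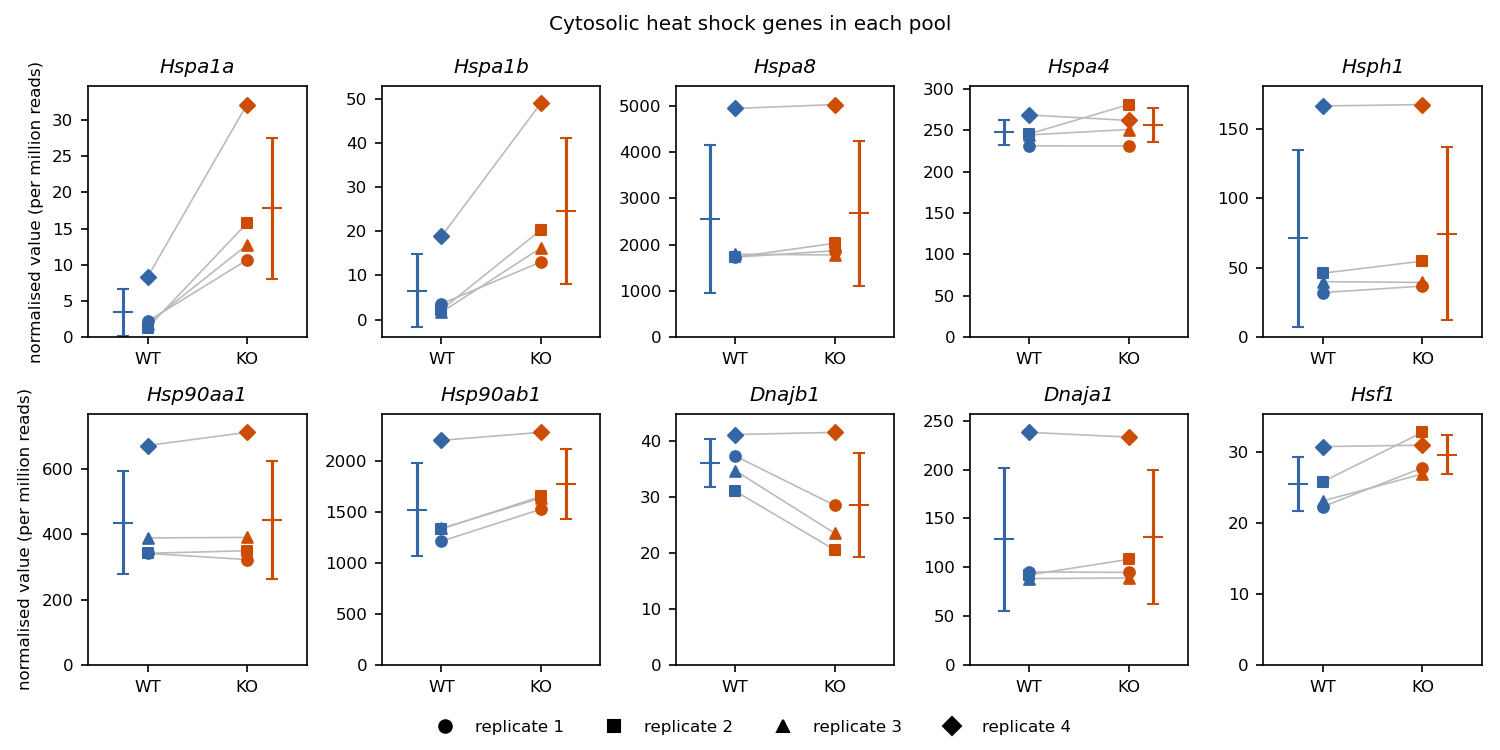
Normalised values (vertical axes, linear) of the 10 genes in the 4 WT and 4 KO pools, with a marker shape for each replicate number, grey lines between same-numbered pools and mean ± SD beside the points (the Hspa1b axis starts below 0 because its WT SD exceeds the mean). The diamonds of replicate 4 sit far above the other pools for Hspa8, Hsph1, Hsp90aa1, Hsp90ab1 and Dnaja1 in both genotypes, while Hspa1a and Hspa1b were higher in KO in each of the 4 pairs.

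Hspa1a (ENSMUSG00000091971, GRCm38 chromosome 17, 34969190 to 34972156, minus strand) encodes an inducible HSP70. Its values were 2.19, 1.30, 1.85 and 8.31 in WT replicates 1 to 4 and 10.7, 15.7, 12.7 and 32.1 in KO replicates 1 to 4. The lowest KO pool was above the highest WT pool, so the groups did not overlap, as was the case for 37.7% of all tested genes. Means were 3.41 ± 3.29 in WT and 17.8 ± 9.78 in KO (SD, n = 4), and in log2 KO exceeded WT by 2.21 (SE 0.449; adjusted p from limma 0.00361). On the log2(value + 1) scale used for fold changes, differences of such low genes are understated.

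Hspa1b (ENSMUSG00000090877, chromosome 17, 34956436 to 34959238, minus strand) lies close by and encodes nearly the same protein. Its values were 3.57, 2.21, 1.66 and 18.9 in WT and 13.0, 20.3, 16.2 and 49.1 in KO. Here WT replicate 4 exceeded KO replicates 1 and 3, so the groups overlapped. Means were 6.58 ± 8.24 in WT and 24.7 ± 16.5 in KO (SD, n = 4), with a difference of 2.09 in log2 (SE 0.614; adjusted p from limma 0.0227). This call was lost without WT replicate 1 (adjusted p = 0.0551), WT replicate 2 (0.0633), WT replicate 3 (0.0559) or KO replicate 4 (0.0536). Over all 19 alternatives its adjusted p lay between 0.000103 and 0.0633, and with the replicate block it was 0.000136. The difference itself was 2.73 in log2 without WT replicate 4 and 1.43 at a pseudocount of 5.

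Reads of the pair are hard to tell apart, because 58.8% of all stretches of 50 bases in the Hspa1a transcript also occur in that of Hspa1b, and 62.3% the other way. Hspa1a also overlaps the annotated gene Gm20481 on the opposite strand. The values of the pair were therefore also summed. The sums were 5.76, 3.51, 3.50 and 27.2 in WT and 23.7, 36.1, 29.0 and 81.2 in KO. WT replicate 4 again reached into the range of the KO pools. The difference in log2 was 2.30, and the exact permutation test, two-sided and on 4 against 4 pools, gave p = 0.0571, where 0.0286 is the smallest possible. In the limma fit with both rows replaced by the sum, the adjusted p was 0.0117, and with the replicate block 6.7e-05. Within same-numbered pairs the KO sum was 4.12, 10.3, 8.27 and 2.99 times the WT sum. The direction was thus the same in 4 of 4 pairs. How many of all tested genes keep 1 direction in 4 of 4 pairs was not counted. Without WT replicate 4 the difference of the sums was 2.91 in log2. The difference in size between replicate 4 and the other pairs was not tested.

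Promoters are shown because HSF1 acts through heat shock elements, and only members with a match are printed. The RefSeq table (GRCm38.p6) held promoters for 6 of the 10 genes: Hspa1a, Hspa1b, Hspa4, Hsph1, Dnajb1 and Dnaja1. Those of Hspa8, Hsp90aa1, Hsp90ab1 and Hsf1 were not analysed here. Windows of 280 bases, from 250 before to 30 after the start, were searched for GAANNTTC and TTCNNGAA, which are the facing and opposing pairs of the GAA repeat. Each is its own reverse complement, so that 1 search covers both strands, and matches of the forms may overlap each other. For genes with several annotated starts (2 for Hsph1 and Dnajb1, 3 for Dnaja1) the start with the most matches was taken. Capitals mark the matches.
Hspa1a: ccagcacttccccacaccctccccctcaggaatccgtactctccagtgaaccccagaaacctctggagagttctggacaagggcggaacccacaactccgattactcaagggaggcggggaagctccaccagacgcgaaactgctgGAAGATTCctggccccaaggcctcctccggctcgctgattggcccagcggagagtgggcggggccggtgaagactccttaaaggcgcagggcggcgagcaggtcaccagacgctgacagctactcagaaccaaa
Hsph1: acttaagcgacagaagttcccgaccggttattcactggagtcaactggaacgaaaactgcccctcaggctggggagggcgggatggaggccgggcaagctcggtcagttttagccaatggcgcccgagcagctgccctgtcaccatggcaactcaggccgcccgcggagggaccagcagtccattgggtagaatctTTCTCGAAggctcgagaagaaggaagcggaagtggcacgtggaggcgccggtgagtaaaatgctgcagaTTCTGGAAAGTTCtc
Dnaja1: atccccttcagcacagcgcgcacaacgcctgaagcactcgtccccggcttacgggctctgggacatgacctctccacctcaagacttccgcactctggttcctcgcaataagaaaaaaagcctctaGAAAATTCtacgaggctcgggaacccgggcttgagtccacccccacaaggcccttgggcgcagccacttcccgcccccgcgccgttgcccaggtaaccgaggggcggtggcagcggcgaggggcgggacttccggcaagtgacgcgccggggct
The Hspa1a window is chr17:34972127-34972406 on the minus strand, and its match GAAGATTC begins 104 bases before the start. The Hspa1b window (chr17:34959209-34959488, minus strand) has the same match at the same distance and is 98.6% identical. Counted from 1 at the 5′ end of the window, with the Hspa1a base first, it differs at C44T, T47C, T249G and C276T, none of them in the match. The Hsph1 window is chr5:149636286-149636565 on the minus strand, with TTCTCGAA beginning 54 bases before the start and the run TTCTGGAAAGTTC, in which TTCTGGAA and GAAAGTTC overlap, beginning at base 16 of the transcript. The Dnaja1 window is chr4:40722218-40722497 on the plus strand, with GAAAATTC 124 bases before the start. Among 32851 windows of all genes 14.2% held at least 1 match of either form. A run of 3 alternating units on either strand, as in Hsph1, was held by 0.563%. These are shares of single windows, whereas for members with several starts the window with the most matches was taken. Shares of genes under that rule could be higher and were not counted. No match was found in the windows of Hspa4 and Dnajb1. Only exact matches within these windows were searched, so a missing match does not show that a heat shock element is missing. A match is a match of letters and was not tested as a binding site.

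Hspa8 (ENSMUSG00000015656, chromosome 9, 40800984 to 40810087) encodes HSC70, the constitutive HSP70 that cells keep at high level. Its values were 1731, 1730, 1793 and 4945 in WT and 1868, 2029, 1777 and 5028 in KO. The 6 pools numbered 1 to 3 lay close together, and replicate 4 was 2.82 times the mean of the others in WT and 2.66 times in KO. KO and WT differed by 0.0876 in log2 (SE 0.411, limma adjusted p = 0.888), far below the spread between pools. With the replicate block the SE was 0.0574 and the adjusted p 0.247. A group of 3 small nucleolar RNA genes lie inside Hspa8 on the same strand.

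The exchange factors Hspa4 and Hsph1 belong to 1 protein family and differed in their spread. Hsph1 (ENSMUSG00000029657, chromosome 5, 149614287 to 149636376, minus strand), which encodes HSP105, had values of 32.1, 46.1, 40.0 and 167 in WT and 36.8, 54.8, 39.4 and 167 in KO. Replicate 4 was 4.23 times the mean of the other WT pools and 3.84 times that of the other KO pools. KO exceeded WT by 0.105 in log2 (SE 0.576, limma adjusted p = 0.905). Hspa4 (ENSMUSG00000020361, chromosome 11, 53259814 to 53300457, minus strand), which has a related role, had values of 231, 245, 244 and 268 in WT and 231, 281, 251 and 262 in KO. Its pools were close to each other in both genotypes, with replicate 4 at 1.12 and 1.03 times the mean of the others. The change in KO was 0.0485 in log2 (SE 0.0699, limma adjusted p = 0.626).

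Both cytosolic HSP90 genes were measured, the more inducible Hsp90aa1 and the constitutive Hsp90ab1. Hsp90aa1 (ENSMUSG00000021270, chromosome 12, 110690605 to 110702728, minus strand) had values of 342, 342, 389 and 672 in WT and 323, 350, 391 and 713 in KO. Same-numbered pools of both genotypes were close, and replicate 4 was 1.88 times the mean of the others in WT and 2.01 times in KO. The log2 fold change was 0.0105 (SE 0.278, limma adjusted p = 0.981).
Hsp90ab1 (ENSMUSG00000023944, chromosome 17, 45567775 to 45573271, minus strand) had values of 1215, 1335, 1340 and 2206 in WT and 1528, 1654, 1638 and 2284 in KO. Over all 4 pools the groups overlapped. In the pools numbered 1 to 3 the values were 1215 to 1340 in WT and 1528 to 1654 in KO. Replicate 4 was higher than all of these in both genotypes. How many of all tested genes separate in pools 1 to 3 was not counted. The log2 fold change was 0.245 (SE 0.19, limma adjusted p = 0.345). The gene was called with the replicate block (SE 0.0599, adjusted p = 0.01), without both replicate 4 pools (0.31 in log2, adjusted p = 0.00435) and when WT replicate 4 alone was left out (0.44, adjusted p = 0.0251). The KO value was 1.26, 1.24, 1.22 and 1.04 times the WT value in pairs 1 to 4.

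The J-domain genes differed from each other. Dnaja1 (ENSMUSG00000028410, chromosome 4, 40722150 to 40737149), which encodes a broad-range partner of HSC70, followed Hspa8, with values of 95.2, 92.2, 88.4 and 238 in WT and 94.7, 108, 89.0 and 233 in KO. Replicate 4 was 2.59 and 2.40 times the mean of the others, and the log2 fold change of KO against WT was 0.0502 (SE 0.373, limma adjusted p = 0.93). Smu1 and 2 further annotated genes overlap the locus, Smu1 on the other strand. Dnajb1 (ENSMUSG00000005483, chromosome 8, 83608193 to 83612653), which encodes HSP40, a heat-inducible partner of HSP70, showed another pattern. Its values were 37.3, 31.0, 34.7 and 41.1 in WT and 28.5, 20.5, 23.5 and 41.5 in KO. In pools 1 to 3 the values were 31.0 to 37.3 in WT and 20.5 to 28.5 in KO. The replicate 4 pools were alike, and over all 4 pools the groups overlapped. For this gene too, the share of all tested genes that separate in pools 1 to 3 was not counted. The log2 fold change was -0.37 (SE 0.188, limma adjusted p = 0.151). It was called lower with the replicate block (SE 0.0978, adjusted p = 0.0142), without both replicate 4 pools (-0.50, adjusted p = 0.012), without KO replicate 4 (-0.56, adjusted p = 0.00739) and with library quality weights (-0.40, adjusted p = 0.0475). Dnajb1 and the Hspa1 pair thus had opposite signs of KO against WT in pairs 1 to 3.

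Hsf1 (ENSMUSG00000022556, chromosome 15, 76477422 to 76501913) encodes the regulator, whose activity is set mostly on the protein and not by its mRNA. Its values were 22.3, 25.8, 23.1 and 30.7 in WT and 27.7, 32.7, 26.9 and 30.9 in KO. The pools spread less than those of Hspa1a or Hsph1, and WT replicate 4 was as high as the KO pools. The log2 fold change was 0.21 (SE 0.107, limma adjusted p = 0.146). It was called higher with the replicate block (SE 0.0721, adjusted p = 0.039), without both replicate 4 pools (0.28, adjusted p = 0.0425) and when only WT replicate 4 was left out (0.30, adjusted p = 0.0248). The KO value was 1.24, 1.27, 1.16 and 1.01 times the WT value in pairs 1 to 4, so that pair 4 was nearly equal.

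**Figure D2:**
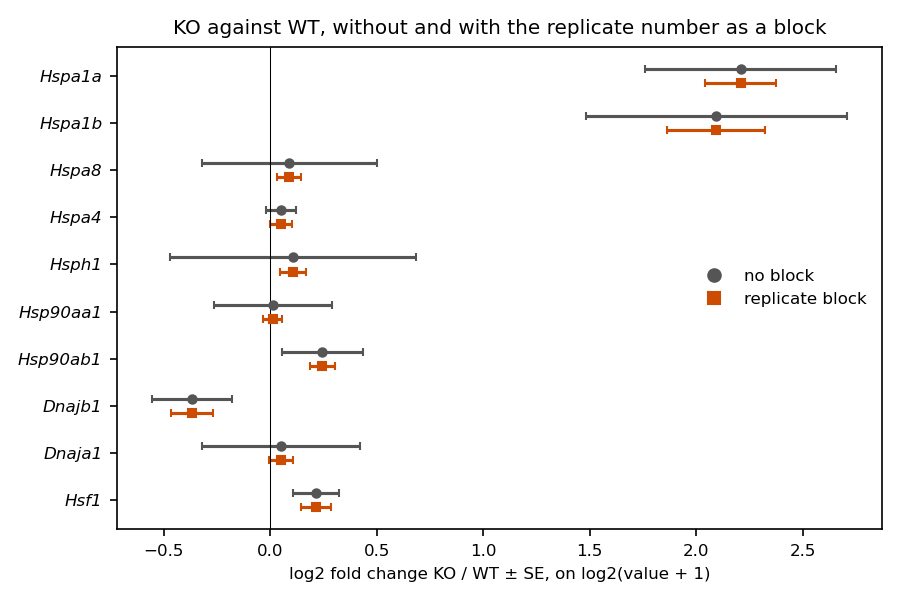
Log2 fold change of KO over WT (horizontal axis, on log2(value + 1)) with its standard error for the 10 genes, without a block (grey circles) and with the replicate number as a block (orange squares). The estimates coincide and the error bars shrink under the block, for Hspa8 from 0.411 to 0.0574, while Hspa1a and Hspa1b stand at 2.21 and 2.09 in both fits.

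Levels between genes were compared only after division by the length of all annotated exons. In WT the means per kilobase of exon were 593 for Hspa8, 508 for Hsp90ab1, 111 for Hsp90aa1 and 44.7 for Hspa4. The lower ones were 14.9 for Dnaja1, 11.2 for Dnajb1, 9.80 for Hsph1, 3.59 for Hsf1, 2.35 for Hspa1b and 1.15 for Hspa1a. Hspa8 (402 to 1150) and Hsp90ab1 (405 to 736) overlapped between WT pools, while Hsp90aa1 (86.9 to 171) lay wholly below them and Hspa4 (41.8 to 48.5) wholly below Hsp90aa1. Dnaja1, Dnajb1 and Hsph1 overlapped each other, and so did Hspa1a and Hspa1b. In KO the means of Hspa1b (8.80 per kilobase) and Hspa1a (6.01) stood above that of Hsf1 (4.16), the reverse of the WT order of means. The KO ranges of Hspa1a (3.59 to 10.8) and Hsf1 (3.78 to 4.61) overlapped. In WT the ranges of Hspa1b (0.591 to 6.73) and Hsf1 (3.14 to 4.32) overlapped too. The exon length was 7099 bases for Hsf1, 2803 for Hspa1b and 2967 for Hspa1a. A transcript shorter than all annotated exons together would stand higher, so orders between genes depend on the length chosen.

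The spread between pools was wide for most of these genes. The within-genotype SD of log2(value + 1) was 1.09 for Hspa1b, 1.03 for Hsph1, 0.79 for Hspa1a, 0.73 for Hspa8 and 0.66 for Dnaja1, where the median over all tested genes was 0.13. These SDs ranked at percentiles of 99.7, 99.65, 99.15, 98.82 and 98.36 among all tested genes. Hsp90aa1 was at 96.05, Hsp90ab1 at 90.68, Dnajb1 at 90.17, Hsf1 at 64.42 and Hspa4 at 33.76. The spread came mainly from 1 replicate number, since replicate 4 was the highest pool in both genotypes for 8 of 10 genes, against 16.5% of all tested genes. It was at least 1.5 times the mean of replicates 1 to 3 in both genotypes for 6 of 10 genes, against 0.806% of all tested genes. This ratio was chosen after the values were seen. By the lower of the WT and KO ratios, Hsph1 ranked 3, Hspa1b 5, Hspa8 8, Hspa1a 11, Dnaja1 12 and Hsp90aa1 26 of 12163 genes. The labels do not say whether the replicate 4 pools were collected, digested or sorted apart from the others.

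**Figure D3:**
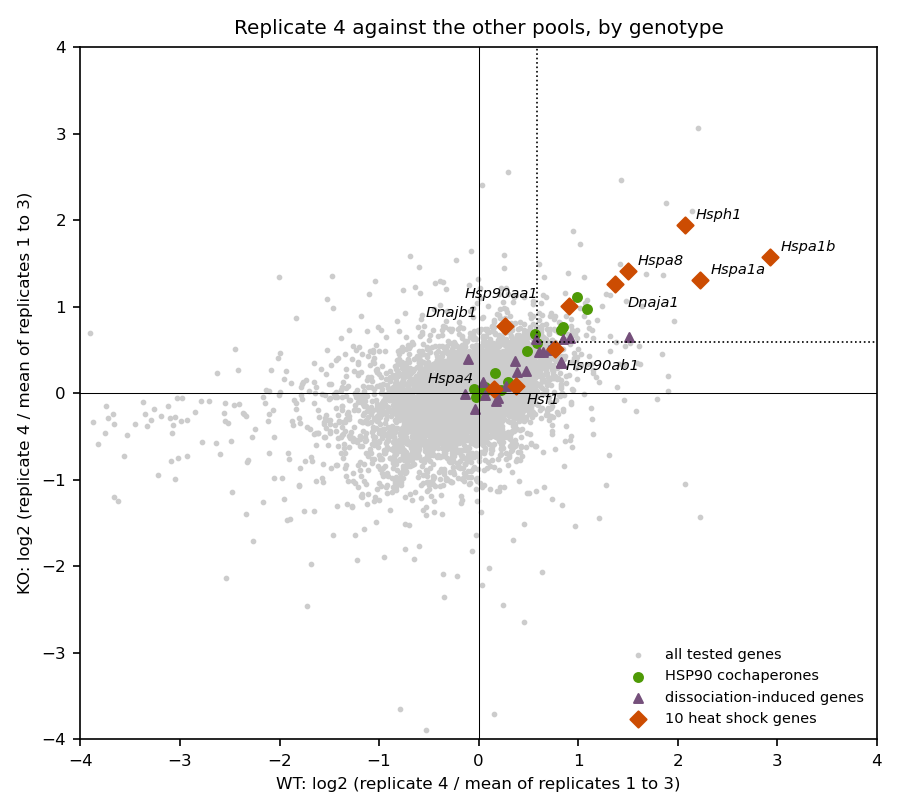
Log2 ratio of replicate 4 to the mean of replicates 1 to 3 in WT (horizontal) and in KO (vertical), for tested genes (grey), the 10 heat shock genes (orange), 15 HSP90 cochaperones (green) and 21 genes induced by tissue dissociation (purple). Dotted lines mark a ratio of 1.5 in each genotype, and 6 of the 10 heat shock genes lie beyond both lines, with Hspa4 and Hsf1 near the origin (axes end at ±4, and 41 tested genes lie outside them).

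Genes around the chaperones were read from lists. For each count of limma calls below, the shares over all tested genes were 18.7% higher and 20.0% lower. They were 22.4% and 24.3% with the replicate block, and 19.8% and 21.3% without both replicate 4 pools. Among 15 HSP90 cochaperones 1 rose in KO, 0 fell and 14 stayed uncalled (2 and 0 at an unadjusted p under 0.05). Their median change in log2 was 0.0259. Ppid, a cyclophilin that binds HSP90, rose from 62.0 ± 7.40 to 76.8 ± 7.90 (SD, n = 4; limma adjusted p = 0.0321). Cdc37, which loads kinases, was 118 ± 5.22 and 130.0 ± 4.04 (limma adjusted p = 0.0554, and 0.0435 with the block), and Ttc4 was 22.7 ± 1.25 and 23.9 ± 0.474. With the block 3 were higher. In 4 of the 15, namely Stip1, Fkbp4, Fkbp5 and Chordc1, replicate 4 was at least 1.5 times the others in both genotypes. Stip1, which passes clients from HSP70 to HSP90, had 184 in WT replicate 4 against 81.0 to 92.3 in the other WT pools, and 161 in KO replicate 4 against 72.7 to 88.0.

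Among 9 HSP70 exchange factors and cochaperones 3 rose, 1 fell and 5 did not pass, with a median of 0.171. Bag1 rose from 88.2 ± 2.80 to 111 ± 4.75 (limma adjusted p = 0.000753), Bag2 from 0.614 ± 0.253 to 2.32 ± 0.406 and Hspbp1 from 22.8 ± 0.713 to 27.7 ± 1.67. Bag2 was below the filter value of 1 in all 4 WT pools and passed the filter only through the KO pools, so that once in the test it had to differ. Bag4 was the gene that fell. With the block 5 rose. None of the 9 reached the ratio of 1.5 in replicate 4 of both genotypes. Bag3, the exchange factor most typical of an HSF1 response, was 24.1 ± 2.83 and 27.4 ± 3.23, a difference of 0.18 in log2. It was not called without a block (limma adjusted p = 0.205) and was called higher with it (0.0492).

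Of 11 other J-domain proteins 1 rose, 0 fell and 10 did not pass. Dnajc21, which works with HSP70 in ribosome maturation, rose from 25.7 ± 4.07 to 35.3 ± 3.14 (limma adjusted p = 0.0095). Dnajb6 was 112 ± 5.91 and 124 ± 6.36, and Dnajc5 was 249 ± 11.2 and 272 ± 9.62. With the block 2 rose. Of 7 tested genes among other HSP70 and small heat shock proteins 1 rose and 2 fell, and with the block 1 rose and 4 fell. Hspa12a, a distant HSP70 relative, fell from 99.95 ± 21.7 to 39.4 ± 7.55 on the normalised scale, which is -1.32 in log2 (limma adjusted p = 0.000176). Hspa14, which acts at the ribosome, fell from 51.3 ± 2.06 to 40.2 ± 2.45. Hspb11, listed here under its name, was the 1 that rose, from 2.37 ± 0.487 to 3.71 ± 0.204. Whether Hspb11 acts as a chaperone was not tested. Hspb1 did not pass the filter, and Hspb2 and Hspb8 were not analysed here. Replicate 4 reached the ratio of 1.5 in both genotypes for 1 of the 11 J-domain genes, Dnajb2. It did so for 2 of the 7 other HSP70 and small heat shock genes, Hspa4l and Cryab, against 0.806% of all tested genes. Cryab was low, with means of 1.45 in WT and 0.853 in KO.

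The chaperonin CCT folds actin and tubulin, and prefoldin is its helper. Of their 14 genes 7 rose, 1 fell and 6 did not pass, with a median of 0.205. Over all tested genes 18.7% were higher and 20.0% lower. With the block 8 of the 14 rose and 1 fell, against 22.4% and 24.3%. Cct2 rose from 263 ± 11.1 to 332 ± 6.69 (limma adjusted p = 0.000382), Pfdn5 from 110.2 ± 6.09 to 151 ± 18.2 and Cct5 from 208 ± 17.3 to 261 ± 7.62. Replicate 4 was the highest pool in both genotypes for 6 of the 14, against 16.5% of all tested genes, but 0 of 14 reached the ratio of 1.5 in both. The 2 tested HSF1 partners did not pass: Hsf2 was 19.6 ± 1.39 and 18.1 ± 0.646, and the HSF1-binding Hsbp1 was 94.0 ± 2.25 and 96.2 ± 6.03. Both limma counts for this list were also 0 at an unadjusted p under 0.05 and with the block.

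In HSP70 and HSP90 genes of other compartments 1 of 6 rose and 0 fell. With the replicate block 2 were higher and 1 lower, and without both replicate 4 pools 3 and 1. Hspa9, the mitochondrial HSP70, was 317, 325, 335 and 324 in WT and 726, 814, 804 and 522 in KO. It was thus lowest in KO replicate 4, the pool in which Hspa1a and Hspa1b were highest. Hspa5, the HSP70 of the endoplasmic reticulum, was 1250 in WT replicate 4 against 670 to 819 in the other WT pools, and 1347 in KO replicate 4 against 667 to 817. Hspa13, a microsomal HSP70 relative, was 62.0 ± 7.34 and 72.8 ± 7.44 (limma adjusted p = 0.0871, and 0.00728 with the block). Hsp90b1, the HSP90 of the endoplasmic reticulum, was 1358 ± 217 and 1179 ± 141 (limma adjusted p = 0.208, and 0.00896 with the block).

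Since tissue handling can induce heat shock genes, 21 genes known to respond to dissociation and sorting, mostly immediate early genes, were read in the same pools. KO against WT called 0 of 21 in limma, with 0 higher and 2 lower at an unadjusted p under 0.05. With the replicate block 4 were higher and 13 lower, against 22.4% and 24.3% of all tested genes. Without both replicate 4 pools the counts were 0 and 1, against 19.8% and 21.3%. Egr2 was 135 ± 42.9 and 82.4 ± 13.7 (limma adjusted p = 0.0503, and 0.00132 with the block). Ier5 was 125 ± 19.5 and 97.5 ± 14.7 (0.0519 and 0.00069), and Klf6 was 476 ± 74.1 and 401 ± 44.9 (0.128 and 0.00304). Replicate 2 was the lowest pool in both genotypes for 20 of 21 genes, against 4.50% of all tested genes. Among the 10 heat shock genes this held for 1, Dnajb1. Replicate 4 was the highest in both for 7 of 21, against 16.5% of all tested genes, and the highest WT pool for 14 of 21. It reached the ratio of 1.5 in both genotypes for 3 of 21, against 0.806% of all tested genes, with median ratios of 1.39 in WT and 1.29 in KO. The summed values of the 21 were 5568, 2669, 5458 and 6714 in WT replicates 1 to 4 and 4976, 1886, 3580 and 4519 in KO. The summed values of the 10 heat shock genes were 3711, 3852, 3957 and 8596 in WT and 4161, 4566, 4265 and 8840 in KO. In WT replicate 4 was highest in both sums. In KO the dissociation sum was highest in replicate 1 and the chaperone sum in replicate 4. The part of handling in the values of replicate 4 was not tested.

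**Figure D4:**
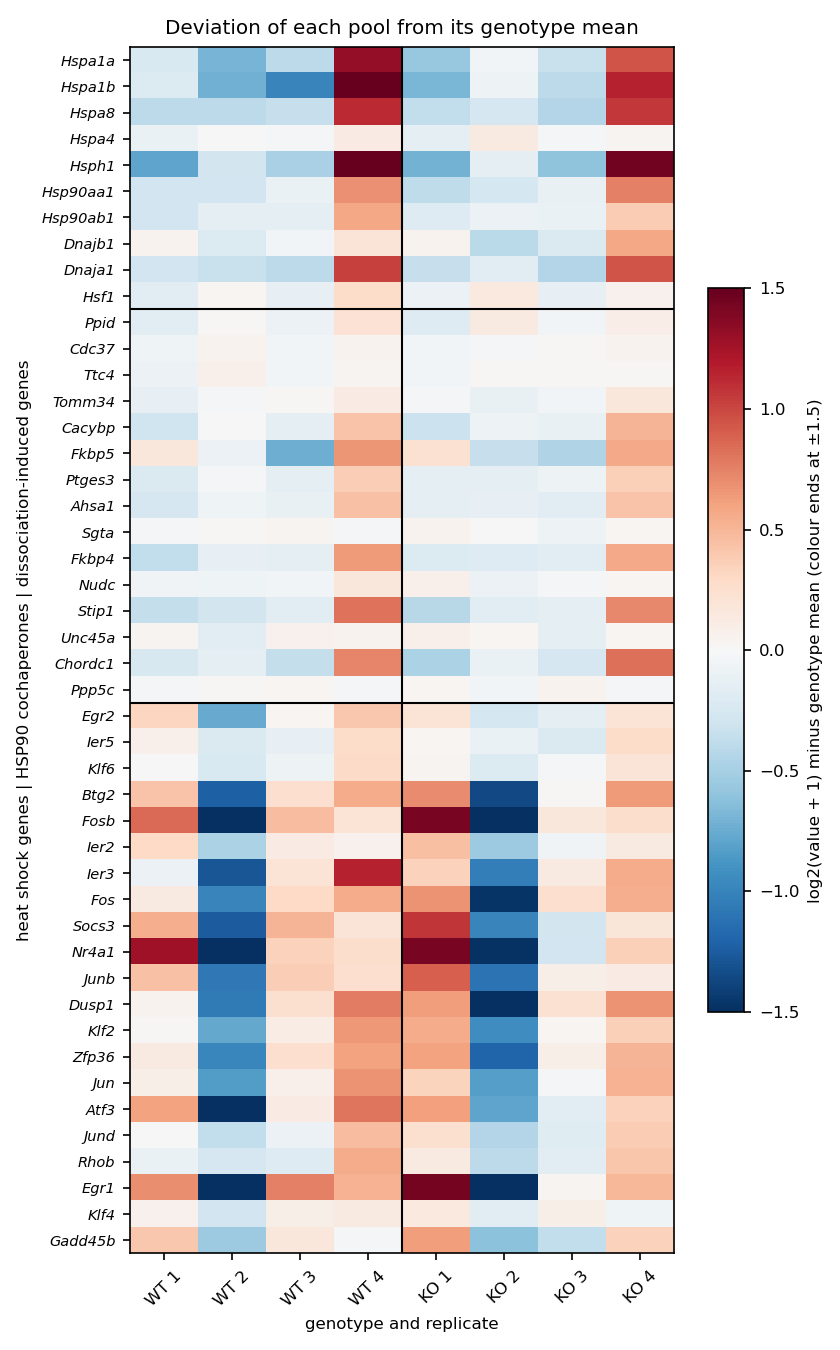
Difference of each pool from the mean of its genotype in log2(value + 1) (colour, red higher and blue lower, ends at ±1.5) for the heat shock genes, the HSP90 cochaperones and the dissociation-induced genes, with pools in columns. Heat shock genes and several cochaperones are red in WT 4 and KO 4, and the dissociation-induced genes are blue in WT 2 and KO 2.

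The pools of each genotype also gave a measure of which genes vary like the inducible HSP70 pair. After the genotype means were taken out, Pearson's r with the log2 sum of Hspa1a and Hspa1b over the 8 libraries was 0.96 for Dnaja1, 0.947 for Hspa8, 0.942 for Hsp90ab1, 0.923 for Hsph1, 0.903 for Hsp90aa1 and 0.745 for Hsf1. It was 0.617 for Dnajb1 and 0.606 for Hspa4. The 5 other named genes with the highest r were Sugt1 (0.987), which encodes an HSP90 cochaperone, Brpf3 (0.982), St7l (0.98), Zswim6 (0.98) and Tshz1 (0.979). Sugt1 moved within a narrow range, with 63.9 to 65.8 in WT replicates 1 to 3 and 71.9 in replicate 4, and 60.5 to 63.2 and 65.8 in KO. These coefficients describe 8 libraries that share the replicate 4 pools, and they carry no test.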

How the data were processed

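RNA was measured in 8 libraries of sorted alveolar macrophages, 4 per genotype, with groups and replicate numbers taken from the sample titles. The authors deposited 1 table of normalised signal with 1 value per gene and library. Per the submitters' processing notes the build was GRCm38 and the tools included RSEM (1.3.1), cutadapt (1.7.1), CASAVA (1.8.2) and limma. How reads were aligned and whether strand was used in counting is not given in the sources used here. In 100% of values per library the value was a whole multiple of the column's smallest (tolerance 0.01). The values were taken as whole reads plus 0.5 on a scaled per-million basis, and depth and floors were read from that. Whether the multiples were odd, as this form requires, was not tested. Floors cover counting error only.

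After log2(value + 1), rows that reached 1 in 4 or more libraries (12163, with 204 left out) entered limma (version 3.58.1, R 4.3.3). Variances were moderated along a trend in mean level, tests were two-sided, and p was adjusted by Benjamini and Hochberg over all rows, with calls under 0.05. The steps were tested on simulated data. The sum of Hspa1a and Hspa1b was compared by a two-sided exact permutation test (SciPy 1.17.1). The 10 members, the 8 further gene lists (92 genes), the 8 marker lists and the tests were chosen with earlier results of these data known. Named genes are every member, up to 3 genes per list by p, and the 5 genes most like Hspa1a plus Hspa1b. Any other gene was chosen after its values were seen.

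The labels do not say what a replicate number marks. Over all genes, WT and KO libraries of equal number deviated together from their genotype means (r of 0.36, 0.29, 0.39 and 0.43; -0.37 to 0.092 for unequal numbers). The numbers were therefore taken as pairs, and the blocked fit is given where it changes the call of a member or the count of a list. This pairing was read from the same values that the blocked fit tests. Because deviations are taken from genotype means, a positive r for equal numbers in itself lowers r for unequal numbers. Further alternatives were pseudocounts of 0.25 and 5, other filters, quantile or median scaling, voom or library quality weights, a fit without the trend, and leaving out libraries. Gene positions are from GENCODE M21 and promoter sequences from RefSeq (GRCm38.p6).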

Additional observations from a re-analysis of the deposited data

Results flagged for a closer look

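In groups of 4 pools, 16 values lay farther from the other pools of their genotype than Dixon's 95% limit allows, in 78 groups examined. Chance gives about 1 in 20 for independent groups, and over all tested genes 8.16% of WT groups and 5.46% of KO groups had such a pool. The 78 groups are not independent. They include genes picked by p or by likeness to the Hspa1 pair, and the sum of the pair beside its 2 parts. The count of 16 therefore cannot be measured against that rate. WT replicate 4 was high for Hspa1a (8.31 against 1.30 to 2.19), Hspa1b (18.9 against 1.66 to 3.57), their sum (27.2 against 3.50 to 5.76) and Hsp90aa1 (672 against 342 to 389). For Hspa8 it was high in WT (4945 against 1730 to 1793) and in KO (5028 against 1777 to 2029). For Hsph1 the values were 166.5 in WT (against 32.1 to 46.1) and 167.5 in KO (against 36.8 to 54.8). For Hsp90ab1 they were 2206 in WT (against 1215 to 1340) and 2284 in KO (against 1528 to 1654), and for Dnaja1 238 in WT (against 88.4 to 95.2) and 233 in KO (against 89.0 to 108). These last 4 genes are 4 of the 20 tested genes in which replicate 4 was far above the others in both genotypes.

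Outside the 10 genes, Dnajc5 was high in KO replicate 4 (287 against 266 to 268), Dnajc21 low in KO replicate 1 (30.6 against 36.4 to 37.1), Bag2 low in KO replicate 2 (1.72 against 2.46 to 2.60) and Ttc4 low in KO replicate 1 (23.2 against 24.1 to 24.2).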

How the results depend on the processing

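The count of 2 genes called higher was 4 with the replicate block and without both replicate 4 pools, and lay between 1 and 4 when single pools were left out (4 without WT replicate 4, 1 without WT replicate 1, 2 or 3 or KO replicate 4). The count of 0 called lower was 1 with the replicate block, with library quality weights and without both replicate 4 pools, and 0 to 1 without single pools (1 without KO replicate 4). The counts over all genes stayed within 1.5 times. Hspa1a kept its call in 19 of 19 alternatives (adjusted p 1.98e-05 to 0.0125), with a log2 fold change of 1.42 at a pseudocount of 5, and Hspa4 stayed uncalled in 19 of 19. For the sum of Hspa1a and Hspa1b, limma gave 2.30 (adjusted p = 0.0117), 2.30 with the replicate block (6.7e-05) and 2.55 without both replicate 4 pools (3.83e-05). The paired and leave-out permutation tests of the sum could not reach 0.05.

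The sign of 4 uncalled genes turned. Under quantile normalisation Hspa8 was at -0.13 and Hsp90aa1 at -0.071. Without single pools Hspa8 turned in 4 of 8 cases and reached -0.27, Hsph1 in 3 to -0.38, Hsp90aa1 in 4 to -0.24 and Dnaja1 in 4 to -0.26, each time lowest without KO replicate 4. The ranges over single pools were -0.27 to 0.46, -0.38 to 0.62, -0.24 to 0.24 and -0.26 to 0.39. Without both replicate 4 pools Hsp90aa1 was at -0.014. Beyond the members named above, the block changed no call among the 10. Hspb1 and Hspa12b were below the filter. The alternative without both replicate 4 pools, and the limma fits of the sum, were chosen after seeing the data. The lowest value of a member, 1.30, is above that of 3 reads (0.1 to 0.152). Genes below the level of the table were not analysed here. Whether the replicates of a number share a day or a litter is not known from the labels.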

Other observations

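Some further genes, chosen after their values were seen, also set the replicate 4 pools apart. Cirbp, which encodes a cold-inducible RNA-binding protein, was 51.1, 38.0, 34.1 and 17.4 in WT replicates 1 to 4 and 38.5, 19.3, 31.1 and 9.54 in KO. It was thus lowest in the pools in which Hspa8 and Hsph1 were highest. Rbm3, a related cold-inducible gene, was lowest in WT replicate 4 (337 against 471 to 542) but not in KO replicate 4 (453 against 410 to 547). Tef, a transcription factor driven by the circadian clock, was 30.2, 30.1, 27.0 and 7.68 in WT and 28.2, 21.7, 24.5 and 8.94 in KO. Of 11 clock genes 7 were lowest in replicate 4 of both genotypes, as were 18.7% of all tested genes. Arntl (17.6 against 12.9 to 16.6 in WT, 13.9 against 10.3 to 13.1 in KO) was highest there instead. Ahsa2, an HSP90 cochaperone outside the lists, was 44.4 against 16.3 to 19.6 in WT and 38.2 against 15.7 to 20.6 in KO. In the other direction from the chaperones, 246 of 12163 genes were lower by at least 1.5 times in replicate 4 of both genotypes, and 98 were higher. The part of temperature, time of day or handling in these values was not tested.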
